A study of Mus musculus with 15 samples.

Results

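The cytoplasmic ribosomal protein genes are 83 of the 22350 protein-coding genes on chromosomes 1 to 19 and X of the mouse genome (mm9). They were chosen by symbol: Rpl or Rps followed by a digit, without the Rps6k kinases and without symbols holding a hyphen, plus Rplp0, Rplp1, Rplp2 and Rpsa. Of these, 51 encode proteins of the large (60S) subunit and 32 of the small (40S) subunit, and 7 are paralogs marked by an l in the symbol (Rpl3l, Rpl7l1, Rpl10l, Rpl22l1, Rpl36al, Rpl39l and Rps27l). Fau, which encodes a ribosomal protein fused to a ubiquitin-like protein, did not match the rule by symbol. The genes lie on 19 chromosomes, 4 of them on the X (Rpl10, Rpl36a, Rpl39 and Rps4x). At 13 genes another coding gene started on the opposite strand within 1 kb.

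The cells were C10, a single pre-B line derived from the mouse line HAFTL, which carries C/EBPα fused to the estrogen receptor hormone-binding domain (C/EBPαER) with a GFP tag. C/EBPα is a myeloid transcription factor, and estradiol moves the fusion protein into the nucleus, after which the cells take on macrophage features. H3K27Ac, a mark of active promoters and enhancers, H3K4Me1, a mark of enhancers and promoter flanks, and H3K27Me3, a mark of Polycomb repression, were mapped by ChIP-seq at 0, 3, 12, 24 and 48 h post-induction (hpi). By the labels, induced cells were given 100 nM estradiol, while the paper's methods give 100 uM. They were grown with 10 nM IL-3 and CSF-1, and control cells received the ethanol solvent. All cells carried the fusion gene, and all values described here come from 1 line that expresses this transgene. No library came from cells without it. Effects of the fusion protein therefore cannot be told apart from those of estradiol or of the IL-3 and CSF-1 given with it. With 1 library per mark and time there were no replicates, no test between times was possible, and the 4 comparisons of each mark with 0 hpi share the 0 hpi library.

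Ribosomal proteins assemble with ribosomal RNA into the 2 subunits of the ribosome, and nearly every cell type transcribes most of their genes at a high rate. Their promoters are short, their transcription usually starts at a C within a run of pyrimidines, and the resulting 5′ terminal oligopyrimidine tract lets growth signals control translation of the mRNA. A few paralogs are tissue-restricted, such as Rpl3l in muscle and Rpl10l and Rpl39l in testis.

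The deposited libraries held 11.04 to 31.56 M tags. After repeated positions were reduced to 1 tag, libraries were thinned to equal size within a mark (H3K27Ac 15.22 M tags, H3K27Me3 15.34 M and H3K4Me1 10.91 M). The identity of the cells was checked by H3K27Ac at starts of marker genes. All 7 B cell markers were lower at 48 than at 0 hpi (summed level 439 at 0 and 154 at 48 hpi; single genes 46.1 to 81.5 and then 14.5 to 28.6). All 7 macrophage markers were higher (32.1 and 226 summed; 0.536 to 17.7 and then 4.77 to 68.3). Of 6 markers of other blood cells, 1 was enriched at either time (Pf4), and Cd3e, Gata1 and Klrb1c were near 0. Bins of 10 kb were searched for tags in the H3K27Ac libraries of 0 and 3 hpi where the other 13 libraries held almost none. The search found 5 bins beside Ighm, in the immunoglobulin heavy chain locus on chromosome 12. There the H3K27Ac libraries of 0 and 3 hpi held 555 and 443 tags, against 7 in the other 13 together. The size of this contrast was set by the search, and other pairs of libraries were not searched. Median changes and 2-fold counts in H3K27Ac are therefore also given without those libraries, as changes from 12 hpi.

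To show where on the gene the marks were read, stretches of 60 bases are printed for a few genes, from 40 bases before the transcription start to 20 bases from it, in mm9 and 5′ to 3′ on the coding strand. The start is the RefSeq start, found by matching the RefSeq promoter sequence (build GRCm38.p6) to mm9, and capitals mark a run of at least 5 C or T bases, counted from a C that lies within 5 bases of it on either side. Rpl27a had the highest H3K27Ac of all members, and the 3 pairs below it are genes whose paralogs differed from them in H3K27Ac.
Rpl27a, RefSeq start, chr7:116662669-116662728, plus strand: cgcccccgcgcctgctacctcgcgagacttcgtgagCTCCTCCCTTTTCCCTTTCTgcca
Rpl22, RefSeq start, chr4:151699795-151699854, plus strand: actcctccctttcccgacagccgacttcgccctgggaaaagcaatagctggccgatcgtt
Rpl22l1, RefSeq start, chr3:28704390-28704449, plus strand: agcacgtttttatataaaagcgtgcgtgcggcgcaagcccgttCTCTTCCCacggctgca
Rpl36a, RefSeq start, chrX:131120153-131120212, plus strand: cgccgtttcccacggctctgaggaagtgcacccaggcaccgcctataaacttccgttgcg
Rpl36al, RefSeq start, chr12:70285035-70285094, minus strand: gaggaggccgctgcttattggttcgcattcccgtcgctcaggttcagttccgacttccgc
Rpl39, RefSeq start, chrX:34625198-34625257, minus strand: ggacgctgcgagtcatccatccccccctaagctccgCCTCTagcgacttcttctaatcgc
Rpl39l, RefSeq start, chr16:10170281-10170340, plus strand: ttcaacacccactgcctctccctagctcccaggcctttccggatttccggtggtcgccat

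Rpl27a carried the longest pyrimidine run of the group, 20 bases. Of the 62 members with a matched RefSeq start, 28 (45.2%) had such a run, against 18.8% of all 14817 genes with a matched start and 22.4% of 67 mitochondrial ribosomal protein genes, whose products make up the separate ribosome of the organelle. The base at the RefSeq start was C at 32.3% of these members and at 14.0% of all genes with a matched start. Where transcription began in these cells was not measured. Among the pairs printed, the run was found at Rpl39 but not at Rpl39l, and at Rpl22l1 but not at Rpl22. It was found at neither Rpl36a nor Rpl36al. Of pairs not printed, neither Rpl10 nor Rpl10l had the run, and both Rps27 and Rps27l had it. A relation of the run to the H3K27Ac of the pairs was not tested. No RefSeq start was matched for Rpl17, Rpl21, Rpl23a, Rpl29, Rpl3, Rpl30, Rpl32, Rpl36, Rpl7, Rpl8, Rplp1, Rps14, Rps20, Rps27a, Rps29 and Rps3a, among others.

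Short motifs were searched on both strands from 250 bases before to 50 bases after the RefSeq start of each gene, or the annotated start where none was matched. CCGGAAG, the core bound by Ets factors such as GABP, was present at 34.9% of the 83 members, 20.8% of other acetylated starts (defined below) and 11.2% of all starts, and at 35.1% of 77 mitochondrial ribosomal protein genes and 31.6% of 38 translation factors. AAGATGG, the core of the YY1 motif, was present at 12.0%, 7.81% and 6.65%, and at 18.2% and 13.2% of the last 2 lists. The Sp1 core GGGCGG was found at 55.4% of members, 65.7% of acetylated starts and 45.3% of all starts, and the E-box CACGTG at 9.64%, 10.6% and 7.91%. TATAAA was found at 13.3%, 6.49% and 13.2%. The median GC content of this window was 56.7% at members, 60.7% at acetylated starts and 55.7% at all starts. These are matches of letters, with no test that a factor was bound.

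The start of each gene was taken as the 5′ end of the annotated gene. At 58 of the 62 members this lay within 500 bases of the RefSeq start (median distance 3 bases), but at Rpl13a, Rpl18, Rps2 and Rps10 it lay 7672, 2614, 1947 and 1385 bases upstream of it. The next stretches show both positions for these 4 genes, because their H3K27Ac depended on which was used.
Rpl13a, annotated start, chr7:52391768-52391827, minus strand: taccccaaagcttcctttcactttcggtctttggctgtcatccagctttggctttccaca
Rpl13a, RefSeq start, chr7:52384096-52384155, minus strand: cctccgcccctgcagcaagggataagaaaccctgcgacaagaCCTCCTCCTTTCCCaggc
Rpl18, annotated start, chr7:52970787-52970846, plus strand: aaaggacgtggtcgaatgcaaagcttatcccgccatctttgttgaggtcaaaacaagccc
Rpl18, RefSeq start, chr7:52973401-52973460, plus strand: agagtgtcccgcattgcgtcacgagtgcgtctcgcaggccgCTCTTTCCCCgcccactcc
Rps2, annotated start, chr17:24855021-24855080, plus strand: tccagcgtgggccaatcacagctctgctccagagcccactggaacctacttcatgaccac
Rps2, RefSeq start, chr17:24856968-24857027, plus strand: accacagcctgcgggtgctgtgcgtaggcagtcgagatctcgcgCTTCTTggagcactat
Rps10, annotated start, chr17:27773555-27773614, minus strand: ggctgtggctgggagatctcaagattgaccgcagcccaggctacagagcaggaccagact
Rps10, RefSeq start, chr17:27772170-27772229, minus strand: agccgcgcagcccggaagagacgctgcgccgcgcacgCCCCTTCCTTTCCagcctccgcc

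At the RefSeq starts all 4 genes had the pyrimidine run, of 14 bases at Rpl13a, 10 at Rpl18, 6 at Rps2 and 13 at Rps10. None of the 4 annotated starts had one. Values at both positions are given where these genes are described.

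H3K27Ac was counted in the 3 kb centred on each start, and the level is the number of tags over the genome mean of 18.6 tags for such a window. Ribosomal protein genes stood high in H3K27Ac at every time. In time order (0, 3, 12, 24 and 48 hpi) their median level was 25.0, 29.1, 22.1, 21.7 and 17.7. The same medians over 9624 other acetylated starts (protein-coding starts with a mean H3K27Ac level of at least 4) were 16.2, 17.7, 16.0, 16.8 and 13.4. The members' median stood at the 84.4 to 90.7 percentile of all protein-coding starts. A window was called enriched when its Poisson tail over the genome mean was below 0.001, which took 34 tags. At each of the 5 times 80 of the 83 genes were enriched, against 46.3%, 46.8%, 47.1%, 46.8% and 47.2% of all starts in time order. The other 3 were Rpl3l, Rpl10l and Rpl39l.

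**Figure D1:**
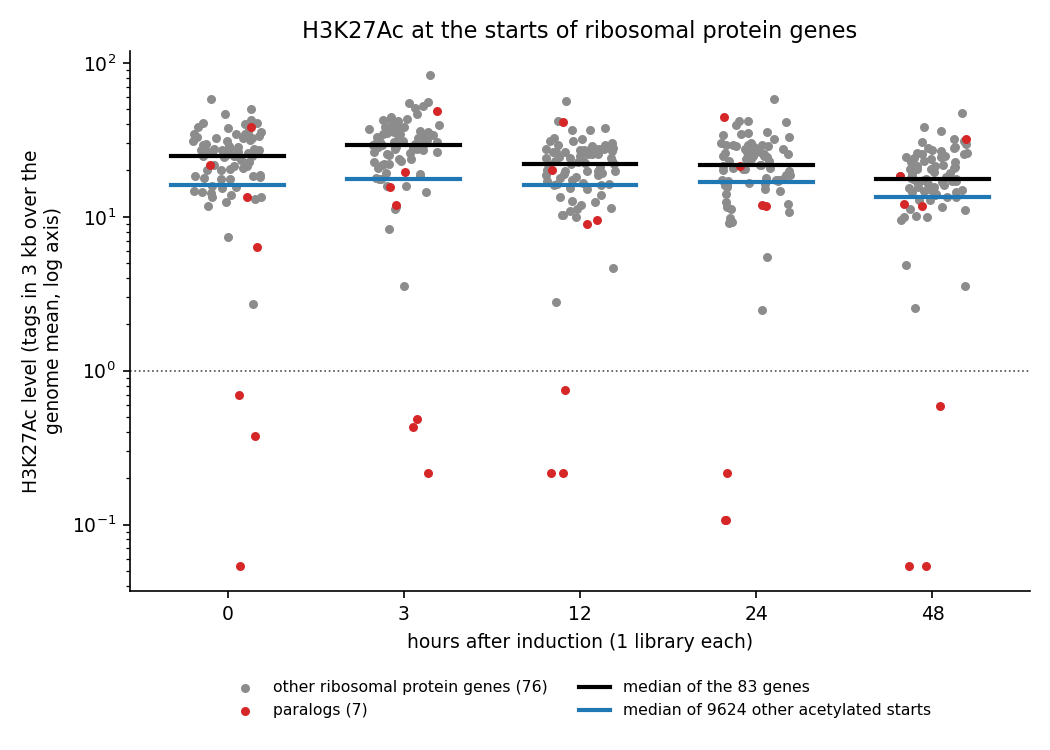
Each point is the H3K27Ac level of 1 ribosomal protein gene (tags in 3 kb over the genome mean, log axis) in the single library of that time, with the 7 paralogs in red, the median of the 83 genes in black and the median of 9624 other acetylated starts in blue. The black median (25.0, 29.1, 22.1, 21.7 and 17.7) lay above the blue one at every time, and 3 paralogs lay below the genome mean, which is the dotted line.

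Together the 83 windows held 38284 tags at 0 hpi, or 0.252% of the library (Wilson 95% interval 0.249 to 0.254). At the later times the share was 0.296%, 0.218%, 0.226% and 0.191% (0.189 to 0.193 for the last), so it was highest at 3 hpi and lowest at 48 hpi. Intervals from tag counts here cover counting error only, since no replicate shows the error of the experiment. Positions were compared without strand, which the files do not give, so tags of opposite strands at the same position counted as identical. Identical positions, of which 1 tag was kept, made up 7.17 to 12.9% of the deposited H3K27Ac tags in these windows and 3.37 to 5.57% in the whole libraries, with the highest share in the windows at 3 hpi (12.9%). Their part in the differences between times was not tested beyond counting all deposited tags, which gave a median change of 0.30 in place of 0.25 at 3 hpi.

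The tags lay mostly downstream of the start. Averaged over the 76 members without the paralogs, in bins of 250 bases, H3K27Ac at 0 hpi reached 54.2 times the genome mean 375 bases downstream of the start and 29.4 at 375 bases upstream. Other acetylated starts had peaks at the same distances of 34.8 and 25.2. Over the whole 1.5 kb downstream the mean was 35.8 at members and 22.6 at acetylated starts, while over the 1.5 kb upstream the values were 16.0 and 15.4, so the excess of the ribosomal protein genes lay on the transcribed side. At 48 hpi the peaks were 43.1 and 23.3 at members and 27.9 and 20.2 at acetylated starts. Joined enriched bins around the member starts had a median length of 5 kb at 0 hpi and 6 kb at 48 hpi, against 3 kb and 5 kb at acetylated starts.

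**Figure D2:**
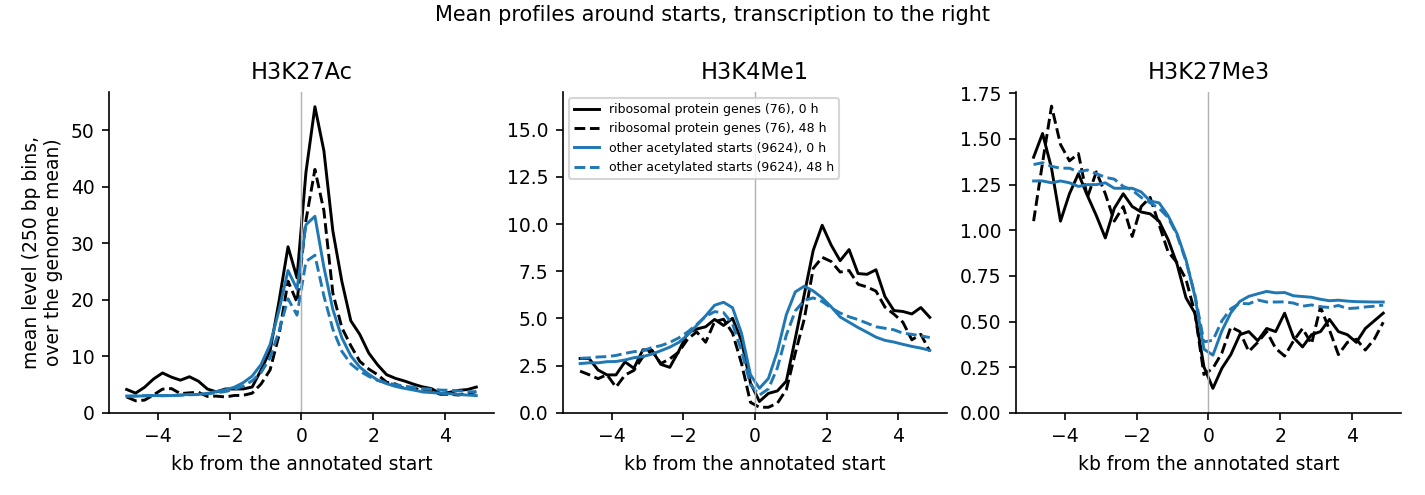
Mean levels in bins of 250 bases (over the genome mean) are plotted against the distance from the annotated start for 76 ribosomal protein genes without paralogs (black) and 9624 other acetylated starts (blue) at 0 hpi (solid) and 48 hpi (dashed). H3K27Ac peaked downstream at 54.2 and 43.1 in ribosomal protein genes, H3K4Me1 was low at the start and peaked 1875 bases downstream, and H3K27Me3 was lowest at the start.

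The order of single genes shows the range within the group. Rpl27a, a 60S protein gene (chr7:116662661-116665881, plus strand), had 1084, 1549, 1056, 1086 and 884 tags in time order. Rpl7 (60S) followed with 871, 1034, 703, 775 and 713 tags. Rps27a, which encodes a 40S protein made as a fusion to ubiquitin, had 942, 975, 781, 779 and 533 tags. The next genes by mean level were the paralog Rpl36al and the 60S gene Rpl14 (794, 783, 678, 777 and 595 tags). All of these except Rpl14 were highest at 3 hpi, and all 5 were lowest at 48 hpi or, for Rpl7, at 12 hpi. When the RefSeq starts were used instead, Rpl13a (1346, 1201, 883, 852 and 776 tags) and Rpl18 (751, 915, 899, 1091 and 946 tags) took the second and the third place by mean level.

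At the low end stood the 3 paralogs without enrichment, followed by Rps2, which codes for a 40S protein at the mRNA entry site, and Rps10, a 40S gene. Rps2 had 51, 66, 52, 46 and 48 tags at its annotated start and 185, 231, 157, 160 and 122 at its RefSeq start. Rps10 had 138, 156, 87, 103 and 66 tags at the annotated and 420, 442, 272, 326 and 233 at the RefSeq start. Rps2 was still 80th of 83 by mean level at its RefSeq start, whereas Rps10 moved from 79th to 64th.

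The change from 0 hpi is given as the log2 ratio of tags with 5 tags added to each count. A gene was counted as changed, or past 2-fold, when the ratio was at least 2-fold, so that exactly 2-fold counted. At 3 hpi the median over the members was 0.25 (95% interval of the median over genes 0.22 to 0.30), with 71 genes above and 11 below 0. It was -0.22 (-0.26 to -0.16) at 12 hpi with 15 above and 68 below, and -0.17 (-0.25 to -0.12) at 24 hpi with 17 above and 66 below. At 48 hpi it was -0.37 (-0.42 to -0.26), with 7 genes above and 75 below 0. These intervals describe the spread over genes of the same libraries and not the error between cultures.

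The sign of these medians depended on how the libraries were scaled. Equal totals were used here. Scaling by bins enriched at all 5 times shifted every H3K27Ac change by 0.13, 0.16, 0.02 and 0.41 at 3, 12, 24 and 48 hpi and turned the members' median at 48 hpi to 0.04, and scaling by bins never enriched shifted it by -0.28, -0.14, 0.56 and -0.07 and gave -0.03 at 3 hpi and 0.38 at 24 hpi. The difference from other starts hardly depends on scaling and is therefore given with it. Other acetylated starts had medians of 0.13, -0.05, 0.03 and -0.27, so the members stood 0.12 above them at 3 hpi (interval over genes 0.08 to 0.17) and -0.17 (-0.21 to -0.11), -0.20 (-0.28 to -0.15) and -0.10 (-0.15 to 0.00) relative to them at 12, 24 and 48 hpi. The interval at 48 hpi included 0. Without the 7 paralogs the members' median at 48 hpi was -0.39 (-0.48 to -0.29) and at RefSeq starts -0.38 (-0.43 to -0.29), and neither of these intervals held the -0.27 of acetylated starts. That -0.27 was read at annotated starts, so the comparison at RefSeq starts is of unlike positions. All protein-coding starts had medians of 0.13, 0.00, -0.14 and -0.14. At 48 hpi the distance from acetylated starts changed sign with the width of the window, at 0.02 in 1 kb and -0.20 in 6 kb.

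Without the libraries of 0 and 3 hpi, the members' median stood slightly below that of other acetylated starts at 24 hpi. At 48 hpi it stood above theirs but was not separated from it by its interval. From 12 to 24 hpi the members' median change in H3K27Ac was 0.04 (0.00 to 0.07), that of acetylated starts 0.08 and that of all starts -0.06. In the lists described below it was 0.01 for mitochondrial ribosomal protein genes, 0.16 for translation factors and 0.12 for ribosome biogenesis genes. From 12 to 48 hpi the members' median was -0.15 (-0.24 to -0.12), with 15 genes above and 67 below 0, and the medians of acetylated starts, -0.23, and of all starts, -0.15, both lay inside its interval. A change below that of acetylated starts was thus seen at 24 hpi against both 0 and 12 hpi in the 3 kb windows. Both of these comparisons share the single 24 hpi library. At 48 hpi the members' interval against 0 hpi left out the median of acetylated starts when the paralogs were left out. It also did so at RefSeq starts, with acetylated starts still read at annotated starts. The distance was larger in 6 kb windows, where no interval is given, and changed sign in 1 kb windows. Against 12 hpi a lower change was not seen at 48 hpi.

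Members past 2-fold were counted beside the shares of all starts, and at 48 hpi the number lower was near its share. At 3 and at 12 hpi 0 of 83 genes were 2-fold higher or lower, against 4.21% of all starts higher and 1.91% lower at 3 hpi, and 4.3% higher and 3.24% lower at 12 hpi. At 24 hpi 1 was higher (Rpl18) and 1 lower (Rpl3l), with 4.73% and 8.65% of all starts. Rpl3l had 13 tags at 0 and 4 at 24 hpi, in a window that was not enriched. At 48 hpi 1 was higher (Rpl18) and 6 were lower (among them Rpl13a, Rpl36a, Rpl39, Rpl39l and Rps10), with 5.3% and 9.39% of all starts. Of the 9624 other acetylated starts, 397 were higher and 1394 lower at 48 hpi. From 12 hpi 0 were higher and 1 lower at 24 hpi (Rpl3l, all starts 0.922% and 4.95%), and 0 were higher and 1 lower at 48 hpi (Rpl13a, all starts 2.34% and 4.66%). At the RefSeq start of Rpl13a the change from 12 to 48 hpi was -0.19 (-0.33 to -0.05), in place of -1.13 (-1.55 to -0.81) at its annotated start. The SD of the change over the 83 genes was 0.23 at 3 hpi and 0.39 at 48 hpi, above the median counting error of single genes, 0.09 and 0.10, so the genes differed among themselves by more than counting error.

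**Figure D3:**
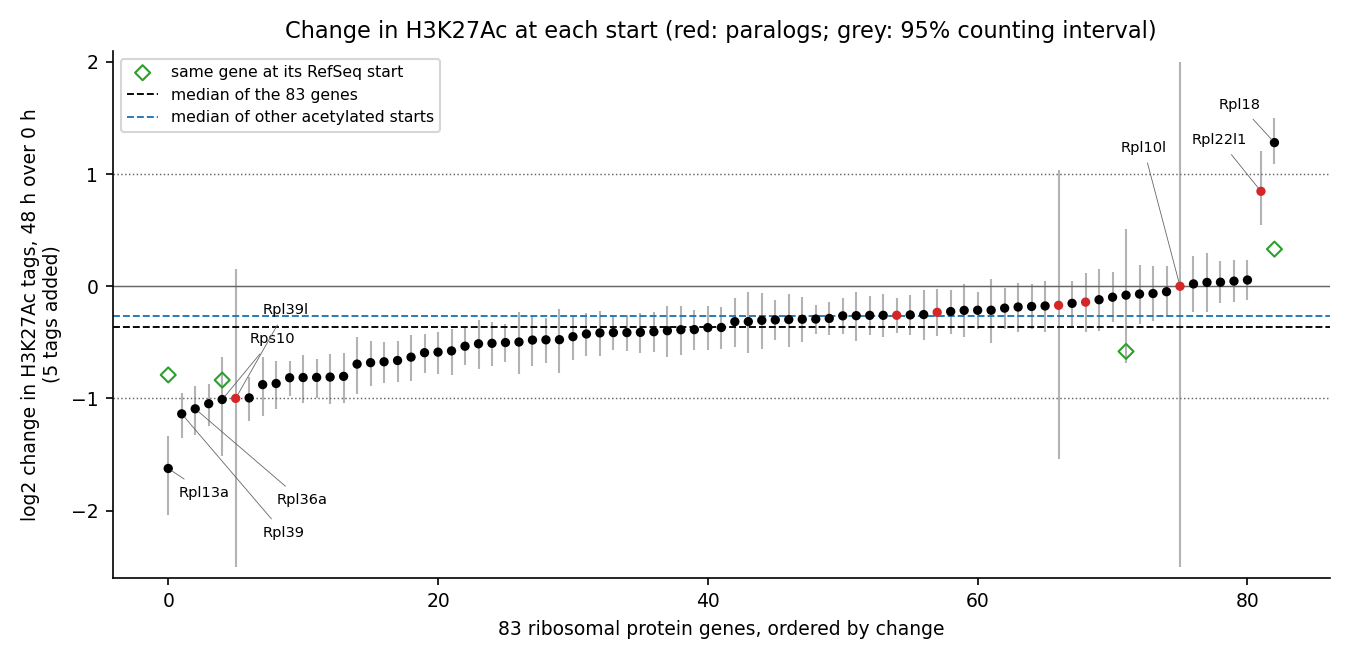
The log2 change in H3K27Ac tags from 0 to 48 hpi (5 tags added) is shown for each of the 83 genes in order, with 95% counting intervals in grey, paralogs in red and values at RefSeq starts as green diamonds for the 4 genes with a distant annotated start. Most genes lay between 0 and -1 around the median of -0.37, which becomes 0.04 under scaling by constantly enriched bins, and the extreme values of Rpl13a and Rpl18 moved inside the 2-fold lines at the RefSeq start.

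The largest differences between 0 and 48 hpi came partly from those displaced starts. Rpl18, a 60S gene on chromosome 7, had 274, 215, 504, 733 and 673 tags in the annotated window, low at 0 and 3 hpi and high later (change at 48 hpi 1.28, with a lower counting bound of 1.09). At its RefSeq start the change was 0.33 (0.19 to 0.47), and from 12 to 48 hpi it was 0.07 (-0.06 to 0.21) there. Rpl13a, whose protein can leave the 60S subunit and hold back translation of inflammatory mRNAs in macrophages, had 288, 211, 203, 172 and 90 tags at the annotated start, with a change of -1.62 (-2.04 to -1.33), and its change at the RefSeq start was -0.79 (-0.92 to -0.67). For Rps10 the values were -1.01 (-1.51 to -0.63) and -0.84 (-1.09 to -0.62), and for Rps2 -0.08 (-0.69 to 0.51) and -0.58 (-0.94 to -0.26). From 12 to 48 hpi the changes at the RefSeq starts were -0.22 (-0.48 to 0.03) for Rps10 and -0.35 (-0.72 to -0.01) for Rps2. With RefSeq starts for all 62 members that had one, the median at 48 hpi was -0.38, no gene was 2-fold higher and 4 were lower (among them Rpl36a, Rpl39 and Rpl39l). At annotated starts 5.3% of all genes were higher and 9.39% lower.

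Rpl36a (60S) had 541, 521, 414, 428 and 251 tags (change -1.09, -1.33 to -0.89). Rpl39, which codes for a small protein of the 60S exit tunnel, had 642, 597, 507, 467 and 289 tags (-1.14, -1.36 to -0.95). Both were lowest at 48 hpi, with changes from 12 hpi of -0.71 and -0.80, and both are on the X chromosome.

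The other 2 members on the X had smaller changes. Rps4x (40S) had 338, 409, 257, 263 and 207 tags (-0.69, -0.96 to -0.45), and Rpl10, whose protein joins the 60S subunit late in assembly, had 503, 648, 577, 668 and 523 (0.06, -0.12 to 0.24). The median over these 4 genes was -0.89, and that over 262 other acetylated starts on the X was -0.20 (-0.29 to -0.12), against -0.27 at acetylated starts of the whole genome. The X held 1.95% of H3K27Ac tags at 0 hpi and 2.06% at 48 hpi.

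Of the 7 members with a change above 0 at 48 hpi, Rpl18 and Rpl22l1 (described with the paralogs) stood apart, and Rpl10, Rpl9, Rps6, Rps7 and Rpl24 lay close to 0. Rpl9 (60S) had 461, 643, 493, 543 and 476 tags, and Rps6, the 40S protein phosphorylated by the S6 kinases, had 471, 611, 515, 539 and 483 tags. At Rpl10, Rpl9 and Rps6 every later count lay above that of 0 hpi, but choosing genes by their rise from 0 to 48 hpi favours low counts at 0 hpi. Rps7 (40S) had 244, 341, 213, 210 and 250 tags and Rpl24 (60S) had 269, 353, 251, 299 and 273, each with a later count below that of 0 hpi. The counting intervals for the change from 0 to 48 hpi included 0 at all 5 genes (Rpl9 -0.14 to 0.23, Rps6 -0.15 to 0.22, Rps7 -0.23 to 0.30, Rpl24 -0.23 to 0.27).

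By subunit the genes were alike. The 45 genes of the 60S subunit without paralogs had a median level of 25.0 at 0 and 18.4 at 48 hpi, with a median change of -0.39 (-0.48 to -0.26), and the 31 of the 40S subunit had 26.8 and 17.9, with -0.40 (-0.67 to -0.26). The 13 members with a divergent coding neighbour had a higher median level (29.8 at 0 and 23.0 at 48 hpi) than the other 70 (24.9 and 17.4). Their median changes of -0.30 (-0.53 to -0.19) and -0.38 (-0.48 to -0.26) had overlapping intervals. The 13 included Rpl36al, Rpl4, Rpl7a, Rpl9, Rps2, Rps25, Rps27 and Rps27a, and another coding gene also started within the windows of Rpl13a and Rpl7, which makes 15. In these 15 windows tags of the neighbour and of the member cannot be told apart.

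The ribosomal stalk recruits the GTPase translation factors and is formed by Rplp0, Rplp1 and Rplp2. Rplp0 had 463, 571, 392, 401 and 262 tags in time order, a change of -0.81 (-1.05 to -0.60) at 48 hpi. Rplp1 had 266, 333, 192, 231 and 187 tags (-0.50, -0.79 to -0.23), and Rplp2 had 607, 799, 584, 617 and 457 (-0.41, -0.59 to -0.23). All 3 were highest at 3 hpi and lowest at 48 hpi. Rpsa, a 40S protein also known as the laminin receptor, showed the same order at both ends with 641, 711, 450, 490 and 400 tags (-0.67, -0.86 to -0.50).

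Paralogs divided into a group without H3K27Ac enrichment and an acetylated group. Rpl10l, an autosomal copy of the X-linked Rpl10, had 1, 4, 4, 2 and 1 tags, where the genome mean was 18.6. Rpl39l had 7, 8, 4, 2 and 1 tags, and the log2 ratio of 48 to 0 hpi had a counting interval from -8.30 to 0.15, so a difference was not detectable at this depth. Rpl3l had 13, 9, 14, 4 and 11 tags (-0.17, -1.54 to 1.03). Their partners Rpl10, Rpl39 and Rpl3 (581, 680, 545, 543 and 385 tags) were enriched at every time, and the counts of each pair did not come near each other in any library.

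The other 4 paralogs were enriched at all times. Rpl36al, an autosomal copy of Rpl36a, had 720, 911, 767, 832 and 601 tags, more than Rpl36a in each of the 5 libraries, with a change of -0.26 (-0.42 to -0.10) at 48 hpi against -1.09 for Rpl36a. The Rpl36al window also held the start of a divergent coding gene, while that of Rpl36a held no other coding start. Rpl7l1 had 405, 366, 376, 399 and 344 tags (-0.23, -0.45 to -0.02), fewer than Rpl7 at every time. Rps27l had 252, 291, 179, 224 and 228 tags (-0.14, -0.41 to 0.12), fewer than Rps27 (386, 473, 306, 281 and 292 tags; -0.40, -0.63 to -0.18), whose product is a 40S protein.

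Rpl22l1 (chr3:28704358-28706274, plus strand) was the paralog with a higher count at 48 than at 0 hpi. It had 119, 222, 167, 220 and 218 tags, lowest at 0 hpi, and its change at 48 hpi was 0.85 (0.54 to 1.21), the second highest of the 83 genes and the highest when RefSeq starts were used. Rpl22, the RNA-binding 60S protein it can replace (chr4:151699851-151708180, plus strand), had 486, 559, 372, 379 and 363 tags, a change of -0.42 (-0.62 to -0.22). Rpl22 stayed above Rpl22l1 in every library, but the ratio between them was smaller at the end than at the start. From 12 to 48 hpi the change of Rpl22l1 was 0.37.

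**Figure D4:**
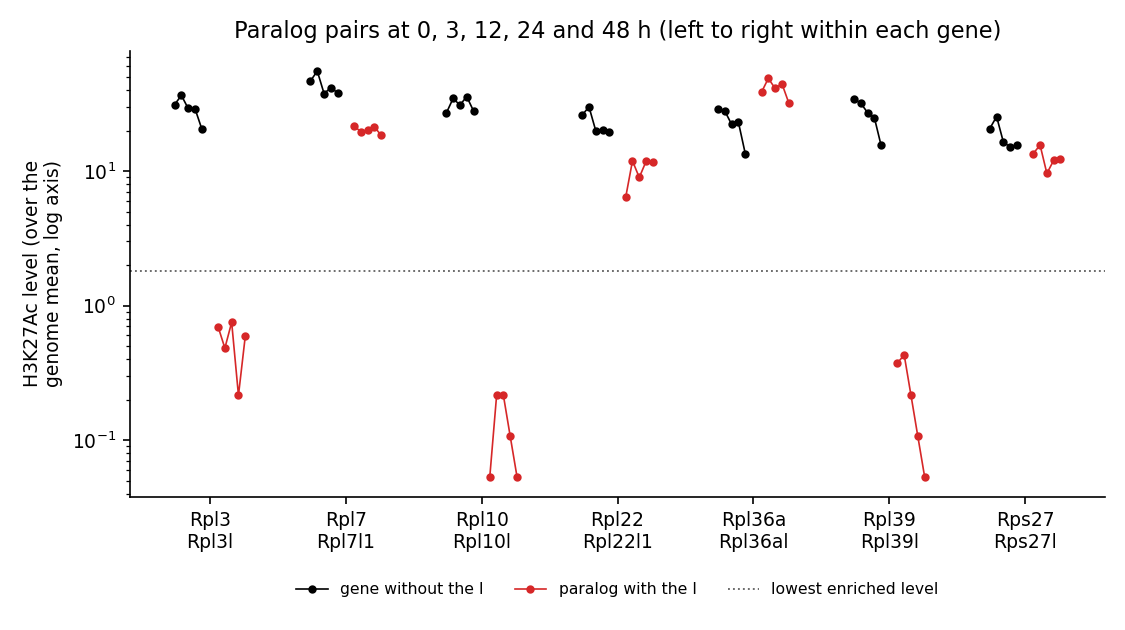
The H3K27Ac level (over the genome mean, log axis) is drawn for each of 7 genes (black) and its l-named paralog (red) at 0, 3, 12, 24 and 48 hpi from left to right, 1 library each, with the lowest enriched level of 1.82 as a dotted line. Rpl3l, Rpl10l and Rpl39l stayed below the line, Rpl36al lay above Rpl36a at all times, and Rpl22l1 was the paralog with a higher level at 48 hpi (11.7) than at 0 hpi (6.38).

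H3K27Ac was low at 55 entries named as processed copies of ribosomal protein genes (symbols with -ps). The annotation lists these entries as protein-coding, so they are among the 22350 starts. Copies annotated as pseudogenes were not counted. The 55 processed copies had median levels of 0.107 to 0.268, far below the genes themselves, and 1 to 3 of them were enriched at a time. Sequences of 36 bases, the tag length, occurred once in the genome at a median of 90.7% of positions in the member windows, against 97.7% at all starts. At the processed copies the median was 81.6% and the lowest value 1.5%. Among members only Rpl37a (77.7%) and Rpl27 (79.2%) were under 80%. Since tags with more than 1 match had been removed, levels of members and of processed copies with repeated sequence can read low.

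Other genes of the translation machinery give the setting for these values. The 77 mitochondrial ribosomal protein genes had a median H3K27Ac level of 14.0 at 0 and 10.8 at 48 hpi, and median changes of 0.17, -0.11, -0.08 and -0.34 at 3, 12, 24 and 48 hpi. At 48 hpi 0 of them were 2-fold higher and 6 lower, where 5.3% and 9.39% of all starts passed. The extremes were Mrpl33 (575 tags at 0 and 904 at 48 hpi) and Mrps28 (266 and 385) among the higher, and Mrpl23 (1091 and 325) and Mrpl34 (284 and 83) among the lower. Both kinds of ribosomal protein genes were thus lower at 48 than at 0 hpi on equal totals, with medians of -0.37 and -0.34 whose intervals overlapped (-0.42 to -0.26 and -0.43 to -0.22).

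Translation factors, which drive initiation, elongation and termination, had median levels over 38 genes of 23.8, 26.4, 19.8, 22.8 and 20.6 in time order, below those of the ribosomal protein genes up to 12 hpi and above them at 24 and 48 hpi. Their changes from 0 hpi stood higher at each time, with medians of 0.30, -0.06, 0.14 and -0.05 and 0 genes past 2-fold at 48 hpi in either direction (5.3% and 9.39% of all starts). The extremes were Eif1a (626 tags at 0 and 966 at 48 hpi), Eif3h (200 and 266), Eef2, the elongation factor that moves the ribosome along (644 and 378), and Eif3k (608 and 309). At 48 hpi the interval of their median, -0.17 to 0.05, did not overlap that of the ribosomal protein genes. Their H3K27Ac regions had a median length of 4 kb at 0 and 8 kb at 48 hpi.

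Ribosome biogenesis genes, whose products process ribosomal RNA and build the subunits, had median changes of 0.27, -0.15, -0.06 and -0.25 over 50 genes, with 3 higher and 3 lower by 2-fold at 48 hpi (5.3% and 9.39% of all starts). Gnl2 (32 and 103 tags) and Heatr1 (150 and 340) were highest. Polr1b, a subunit of RNA polymerase I (141 and 53), and Dkc1, the pseudouridine synthase of ribosomal RNA (356 and 140), were lowest. From 12 to 48 hpi the medians were -0.19 (-0.30 to -0.15) for mitochondrial ribosomal protein genes, 0.00 (-0.04 to 0.12) for translation factors and -0.08 (-0.15 to 0.04) for ribosome biogenesis genes. In these lists 0 genes were past 2-fold, where 2.34% of all starts were higher and 4.66% lower. The interval of translation factors did not overlap that of the ribosomal protein genes (-0.24 to -0.12) here either. The comparisons with 0 and with 12 hpi share the single 48 hpi library, so they are not independent. Their intervals are over genes and do not measure the error between cultures. All of the medians against 0 hpi share the 0 hpi library with those of the ribosomal protein genes, and on scaling by bins enriched at all times each would be about 0.41 higher at 48 hpi.

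**Figure D5:**
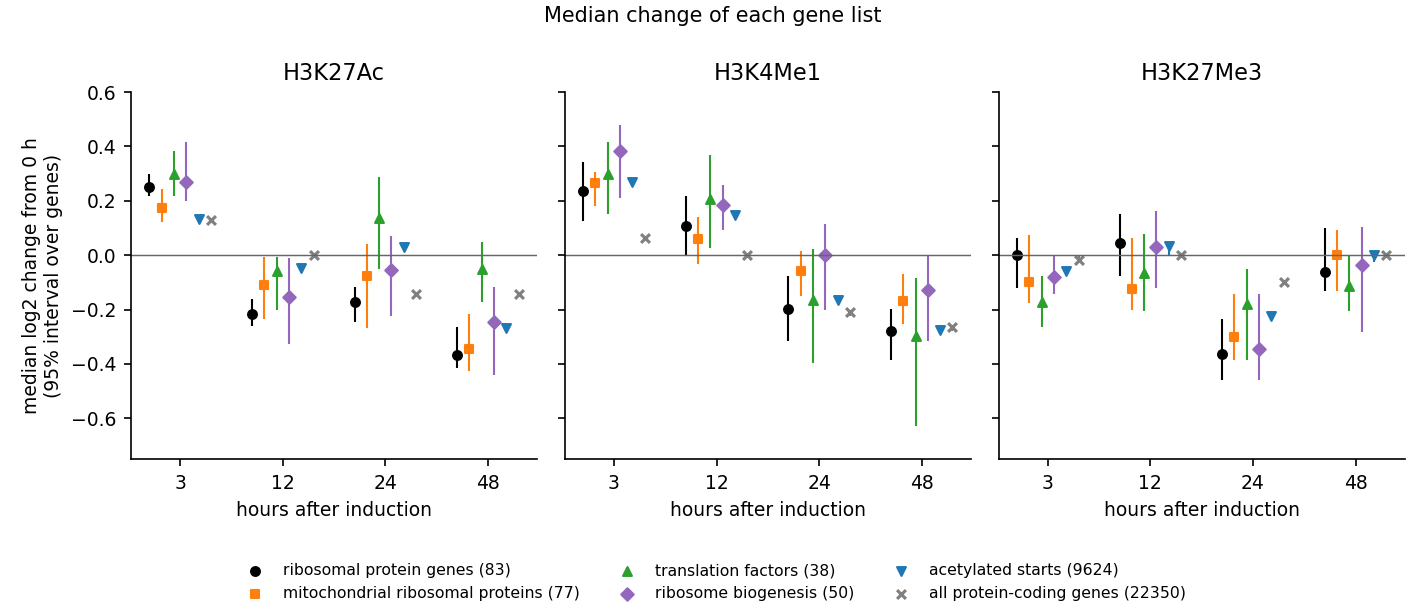
Median log2 changes from 0 hpi (5 tags added) with 95% intervals over genes are plotted by time for 83 ribosomal protein genes and the other lists, for each mark on equal totals. For H3K27Ac the ribosomal protein genes were at 0.25, -0.22, -0.17 and -0.37 and translation factors at 0.30, -0.06, 0.14 and -0.05, while scaling by bins enriched at all times would shift every H3K27Ac value at 48 hpi by 0.41 and turn the first of these lists to 0.04.

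Within 3 kb windows, H3K4Me1 at the starts of ribosomal protein genes was below that at other acetylated starts and above that at all starts. In the same 3 kb windows the median level was 2.54, 3.29, 2.99, 2.47 and 2.32 in time order, against 3.96, 4.93, 4.41, 3.51 and 3.29 at other acetylated starts and 1.5, 1.64, 1.64, 1.35 and 1.2 at all starts. An enriched window took 27 tags, and 59, 72, 66, 50 and 54 of the 83 genes reached it, against 44.9%, 48.1%, 47.3%, 42.8% and 40.6% of all starts and 87.5%, 94.7%, 91.9%, 81.7% and 77.6% of acetylated starts. The mark lay beside the acetylated centre: averaged over 76 members it was 1.09 at the start and 9.94 at 1875 bases downstream at 0 hpi, and 0.425 and 8.24 at 48 hpi. At other acetylated starts the downstream peak was lower and nearer, 6.71 at 1375 bases at 0 hpi. The 3 kb window at 0 hpi thus held the peak of acetylated starts and left out that of the members. In the flanks beyond the window the members were higher, with 5.57 against 4.2 at 0 hpi and 5.23 against 4.45 at 48 hpi.

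The members' H3K4Me1 changed with that of other acetylated starts. Median changes were 0.24, 0.11, -0.20 and -0.28, and relative to acetylated starts they were -0.03, -0.04, -0.03 and 0.00. On scaling by bins never enriched, the medians at 24 and 48 hpi were 0.34 and 0.21, so the sign rests on equal totals. At 3 hpi 3 genes were 2-fold higher (Rps6, Rps13 and Rps24) and 0 lower, against 1.66% and 1.67% of all starts. At 12 hpi 2 were higher (Rpl4 and Rps13) and 0 lower, against 3.13% and 3.91%. At 24 hpi 0 were higher and 4 lower (Rpl7, Rpl36al, Rps10 and Rps23), against 3.15% and 6.68%, and at 48 hpi 0 were higher and 5 lower (Rpl7, Rpl18, Rpl36al, Rps25 and Rps27l), against 3.29% and 9.63%.

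Single genes had few H3K4Me1 tags. Rpl4 (60S) had 20, 34, 47, 41 and 40 tags, low at 0 hpi and higher at all later times (0.85 at 48 hpi, counting interval 0.19 to 1.85). Rpl10a (60S) had 68, 68, 99, 94 and 107 (0.62, 0.20 to 1.11), and Rps13 (40S) had 22, 49, 50, 39 and 34 (0.53, -0.19 to 1.47), whose interval included 0. None of these 3 had a count below that of 0 hpi at a later time. They were, however, named for the largest rises from 0 to 48 hpi, and that choice favours low counts at 0 hpi. At the other end, Rpl7 had 16, 14, 8, 3 and 3 tags (-1.39, -4.84 to -0.61), and Rps25, a 40S protein used by some viral initiation sites, had 29, 27, 22, 14 and 8 (-1.39, -3.20 to -0.69). Rpl18 had 172, 203, 167, 116 and 70 tags in its annotated window (-1.24, -1.72 to -0.89) and 62, 102, 75, 26 and 29 at its RefSeq start (-0.98, -1.79 to -0.44). In that annotated window H3K4Me1 was thus lower at 48 than at 0 hpi while H3K27Ac was higher.

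H3K27Me3, counted in 5 kb, was low at nearly all members. Median levels were 0.511, 0.511, 0.447, 0.319 and 0.511, below the genome mean at every time and close to those of acetylated starts (0.575, 0.575, 0.575, 0.447 and 0.575). An enriched window took 51 tags, and 4, 2, 5, 2 and 3 genes reached it, against 21.1%, 19.9%, 22.9%, 21% and 23.2% of all starts. The mean level at the start itself was 0.193 at 0 and 0.227 at 48 hpi.

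Rpl31 (60S; chr1:39424696-39428753) had 69, 72, 97, 78 and 82 H3K27Me3 tags and was enriched in all 5 libraries. Rpl26 (60S; chr11:68715085-68720491) had 72, 59, 66, 47 and 77. Rpl5, which with Rpl11 carries the 5S RNA and can bind Mdm2, had 57, 44, 61, 43 and 43. These 3 genes carried H3K27Ac at the same time, Rpl31 with 347 and 324 H3K27Ac tags at 0 and 48 hpi, Rpl26 with 328 and 317 and Rpl5 with 344 and 304. Whether both marks lay on the same chromosomes or in the same cells was not tested. The 3 paralogs without H3K27Ac enrichment were also not enriched in H3K27Me3, with 18 to 32 tags at Rpl10l and Rpl39l and 27 to 49 at Rpl3l.

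Median changes in H3K27Me3 were 0.00, 0.04, -0.36 and -0.06 at 3, 12, 24 and 48 hpi, with -0.06, 0.03, -0.22 and 0.00 at acetylated starts. Against 0 hpi, 0 genes were 2-fold higher or lower at 3 hpi (all starts 0.389% and 0.613%). At 12 hpi 1 was higher and 1 lower (Rpl7a and Rpsa; 0.47% and 1.06%), at 24 hpi 0 and 4 (Rpl8, Rpl35, Rplp2 and Rps25; 0.277% and 2.98%), and at 48 hpi 1 and 1 (the lower was Rps4x; 0.783% and 1.5%). The counts behind these 2-fold changes were small, such as 15 tags at 0 and 4 at 24 hpi for Rpl8, and the SD over members, 0.35 to 0.40, was below the median counting error of a single gene, 0.45 to 0.50. The spread of H3K27Me3 change among these genes was therefore not shown to exceed counting error.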

How the data were processed

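ChIP-seq libraries of 3 histone marks at 5 times in C10 cells, 1 library each, were grouped by their GEO labels. By the paper's methods, reads were aligned to mm9 with Eland or Bowtie without mismatches, and non-unique and identical tags were removed. Which aligner served which library is not given in the sources used here. The deposited libraries differed in identical tags. H3K4Me1 at 0 and 48 hpi held up to 205 and 135 tags at 1 position. H3K27Me3 at 0 and 48 hpi held at most 1, and the other libraries at most 2. The deposited files hold positions, 1 tag of 36 bp per line without strand, and no counts or normalized values. Counts were made here: repeated positions were reduced to 1 tag, which was placed at its middle (18 bp from its start) on chromosomes 1 to 19 and X, and libraries were thinned at random (seed 1) to the smallest library of the mark. Tags were counted in 3 kb (5 kb for H3K27Me3) at the 5′ end of each protein-coding gene of GENCODE vM1 on NCBIM37, divided by the mean of mappable 1 kb bins, and compared after adding 5 tags.

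Medians have 95% intervals from order statistics over genes, tag ratios exact (Clopper-Pearson) and shares Wilson intervals. All p-values were left out, since there were no replicates. The steps were tested on simulated counts at 22350 starts. For H3K27Ac 100% of genes planted at 3-fold were recovered, for H3K4Me1 95% and for H3K27Me3 98%. These genes were drawn only from starts with higher mean counts than most members had in H3K4Me1 and H3K27Me3. For those 2 marks the recovered shares therefore do not describe most members. A median of -0.4 planted over the members was read as -0.39, -0.34 and -0.30, because the 5 added tags shrink changes at low counts. Of unchanged starts, 1.43%, 1.16% and 1.16% were called past 2-fold in the same order of marks. Among unchanged members 0, 0 and 3 were called, the last being 3.61%. Genes were named by rule: paralogs with their partners, stalk genes and Rpsa, the 5 highest and lowest and the 5 that rose and fell most in H3K27Ac, 3 each way in H3K4Me1, genes enriched in H3K27Me3, and 2 each way in other lists. Genes past 2-fold, on the X or with distant RefSeq starts, and Rps7 and Rpl24, were added after their values were seen. A few members that enter every count and median are not reported here by name. The members and lists were chosen with earlier results of these data known. The RefSeq starts, changes from 12 hpi and the processed copies were added after seeing the data. Python 3.11.15, numpy 2.4.6, scipy 1.17.1, pandas 2.3.3 and matplotlib 3.10.9 were used.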

Additional observations from a re-analysis of the deposited data

How the results depend on the processing

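No paired analysis was possible because the labels give a single library for every pair of mark and time. Of 489 recomputed values of group results under 14 alternatives, 383 kept direction and size, 101 were counted as moved and 5 as reversed. Of 425 values of named genes, 378 kept direction and size, 47 were counted as moved and 0 as reversed. Some group values counted as moved also crossed 0, so the 5 are not all of the changes of sign. An example is the H3K27Ac distance from acetylated starts at the last time, -0.10 in 3 kb and 0.02 in 1 kb windows. Depth limits single genes most for H3K27Me3 and H3K4Me1, where most members had under 100 tags. The cause of the moves below was not tested beyond what each setting does to the counts.

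Scaling by bins never enriched gave median changes in H3K27Ac of -0.030, -0.35, 0.38 and -0.44 at 3, 12, 24 and 48 hpi, and in H3K4Me1 of 0.51, 0.65, 0.34 and 0.21, with 9, 16, 7 and 3 members past 2-fold in H3K4Me1 and 1 each in H3K27Me3 at 12, 24 and 48 hpi. Scaling by bins enriched at all times gave 0.38 (3 hpi), -0.061 (12 hpi) and 0.04 (48 hpi) for H3K27Ac with 1, 1 and 3 members past 2-fold at 12, 24 and 48 hpi, 0.079 and -0.13 for H3K4Me1 at 3 and 12 hpi with 0 past 2-fold, and -0.085 and -0.19 for H3K27Me3 at 12 and 48 hpi with 1 each.

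In 1 kb windows the H3K27Ac median was 0.30 at 3 hpi and, relative to acetylated starts, -0.086, -0.12 and 0.021 at 12, 24 and 48 hpi, with 1, 1 and 2 members past 2-fold. H3K4Me1 was enriched at 13, 14, 15, 8 and 5 members in time order, with 1 past 2-fold at 12 hpi and 9 at 48 hpi. H3K27Me3 was enriched at 0 members at every time, with 1 past 2-fold at 3 hpi and 2 at 24 hpi and a median of -0.22 at 24 hpi. In wider windows (6 kb, 10 kb for H3K27Me3) the H3K27Ac median was 0.21 at 3 hpi and -0.20 relative to acetylated starts at 48 hpi, the H3K4Me1 median at 48 hpi was -0.17, and members past 2-fold were 0 for H3K27Ac at 24 hpi, 1, 0, 1 and 3 for H3K4Me1 and 0 for H3K27Me3 at 12 and 48 hpi.

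With 1 added tag in place of 5, members past 2-fold were 1 and 1 for H3K27Ac at 3 and 12 hpi, 9 and 8 for H3K4Me1 at 24 and 48 hpi, and 4, 6, 12 and 5 for H3K27Me3, whose median at 24 hpi was -0.49. At 1.5-fold the counts were 4, 6, 7 and 23 for H3K27Ac, 17, 16, 15 and 20 for H3K4Me1 and 9, 10, 21 and 11 for H3K27Me3. Shares of all starts at 1.5-fold and under the other alternatives are not given. The counts therefore show only how calls among the members moved. With a Poisson tail of 1e-06, 31 members were enriched in H3K4Me1 at 48 hpi and 2, 1 and 3 in H3K27Me3 at 0, 3 and 12 hpi.

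With all deposited tags the H3K27Ac median at 3 hpi was 0.30. Deposited tags and unthinned libraries each gave 1 member past 2-fold for H3K27Ac at 24 hpi, 1 and 2 for H3K4Me1 at 3 and 24 hpi, and 0, 1 and 0 for H3K27Me3 at 12, 24 and 48 hpi. Another thinning seed gave 1 for H3K27Ac at 24 hpi, 1 for H3K4Me1 at 3 hpi and 1 for H3K27Me3 at 48 hpi. Without paralogs the counts were 1 for H3K27Ac at 24 hpi and 3 for H3K4Me1 at 48 hpi. With RefSeq starts they were 1 and 4 for H3K27Ac at 24 and 48 hpi. Using the start of most coding transcripts, or only members with at least 80% unique sequence, moved none of the group results.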
